A study of Mus musculus with 4 samples.

Results

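Amino acid supply and serine one-carbon metabolism were described in sorted Lewis lung carcinoma (LLC) cells through 10 of the 35905 genes measured. The 10 genes were named with earlier results of these data known. They were the transcription factor gene Atf4, the transporter genes Slc7a5, Slc3a2, Slc7a11 and Slc1a5, and the enzyme genes Asns, Psat1, Phgdh, Shmt2 and Mthfd2. All 10 were abundant enough to be tested. LLC is a mouse lung cancer line. Tumours were grown under the skin of the flank of C57BL/6 mice for 4 weeks, and TdTomato-positive, CD45-negative cells were sorted for poly-A RNA sequencing. The study compared 2 libraries from WT hosts (Mrp8Cre-, Padi4fl/fl) with 2 libraries from PAD4-DN hosts (Mrp8Cre+, Padi4fl/fl). Both groups of hosts therefore carried the floxed Padi4 alleles, and they differed in the Cre driver. Mrp8Cre is active mainly in neutrophils, where it deletes floxed Padi4, the gene of an enzyme that citrullinates histones. The deletion was thus made in host cells and not in the cancer cells measured here. The age of the mice, and whether replicates came from separate animals, are left unstated by the labels, so a p-value here covers the variation between libraries alone, which may be technical.

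ATF4 is the transcription factor of the integrated stress response. When amino acids run short or the endoplasmic reticulum is stressed, phosphorylation of the initiation factor eIF2 lowers general translation but favours translation of Atf4 mRNA, so the mRNA level is an incomplete measure of ATF4 activity. ATF4 then binds composite C/EBP-ATF elements at genes for amino acid import, amino acid synthesis and the mitochondrial folate pathway, which moves one-carbon units from serine into purines, thymidylate and formate. Tumour cells often depend on this program for growth.

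The composite element has the core TGATGNAA (N is any base). It was searched on both strands of the RefSeq promoters of build GRCm38.p6, each running from 250 bases before to 50 bases after a gene start. Of the 10 genes, 8 had a promoter there, with 9 start sites among them, and Slc7a5 and Slc1a5 had no entry. Asns and Slc7a11 held the core, against 3.97% of all 32851 promoters. The CRE core TGACGTCA was in 0 of the 8 genes and 1.79% of promoters, the E-box CACGTG in 0 and 7.15%, and the antioxidant element TGACNNNGC in 2 (Asns and Phgdh) and 12.4%. The matches to the antioxidant element overlapped no composite core. The 150 bases before the start are shown for the genes that held the composite core and for Shmt2, which had the most negative genotype difference of the 10, with the core in capitals, 5′ to 3′ along the gene, all on the minus strand: chr6:7693210-7693359 for Asns, chr3:50443614-50443763 for Slc7a11 and chr10:127522445-127522594 for Shmt2.
Asns: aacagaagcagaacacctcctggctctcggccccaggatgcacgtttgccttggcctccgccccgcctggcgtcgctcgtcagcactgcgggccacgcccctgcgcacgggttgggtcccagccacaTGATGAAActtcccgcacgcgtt
Slc7a11: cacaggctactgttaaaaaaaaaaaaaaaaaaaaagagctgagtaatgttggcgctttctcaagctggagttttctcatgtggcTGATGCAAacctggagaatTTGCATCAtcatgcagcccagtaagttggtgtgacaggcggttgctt
Shmt2: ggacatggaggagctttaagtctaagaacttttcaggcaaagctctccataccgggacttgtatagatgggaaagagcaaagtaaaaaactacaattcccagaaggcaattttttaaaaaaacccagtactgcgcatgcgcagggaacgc
The Asns core began 23 bases before the start. Slc7a11 held 2 cores, 66 and 47 bases before the start, on opposite strands. These matches describe letters in a window and were not tested for binding.

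The libraries held 20036322 to 25327974 estimated counts. Padi4 reads numbered 0 and 2 in the WT pair and 6 and 0 in the PAD4-DN pair, and these do not check the deletion, which was made in other cells. Of the markers fixed for the tumour cells, Vim was at 3198 to 3809 CPM (counts scaled to a common library size with TMM factors), and the keratin genes Krt8 and Krt18 at 158 to 217 CPM. Epcam and Cdh1, which mark epithelium, were at no more than 0.342 CPM, and Sftpc and Cdkn2a were at 0 counts in every library. Ptprc, which encodes CD45, was at 0.713 to 5.42 CPM. The summed CPM of 9 marker lists overlapped between the groups in all 9. Overlap is common with 2 libraries a group. Of the 13718 single genes tested, 17.4% lay below WT in both PAD4-DN libraries and 15.4% above. PAD4-DN replicate 1 had the highest sums of leukocyte markers, 20.4 CPM (WT 9.41 and 9.60, PAD4-DN replicate 2 2.64), and of macrophage markers, 103 CPM (WT 53.8 and 52.9, PAD4-DN replicate 2 19.8). Erythroid and platelet markers summed to 42.4 and 6.31 CPM in the WT pair and 139 and 5.83 CPM in the PAD4-DN pair, replicate 1 first here and throughout. The fibroblast markers did not move as one. Col1a1, at 16.0 and 531 CPM in the WT pair and 652 and 16.9 CPM in the PAD4-DN pair, Col1a2, at 0.879 and 404 against 467 and 3.94 CPM, and Pi16, at 0.615 and 13.4 against 14.4 and 1.17 CPM, set WT replicate 2 and PAD4-DN replicate 1 apart from the other libraries, across the genotypes. Col3a1, which made up most of the list's sum, was at 7405 and 8248 against 11641 and 6564 CPM, whereas Lum (425 and 442 against 343 and 681 CPM) and Dcn (981 and 770 against 981 and 1045 CPM) were highest in PAD4-DN replicate 2. Col6a1 (272 and 301 against 864 and 199 CPM) and Pdgfra (274 and 300 against 340 and 247 CPM) were highest in PAD4-DN replicate 1. Of the 10 fibroblast markers, 2 lay above WT in both PAD4-DN libraries (15.4% of all genes) and 0 lay below. Those above were Dpt (135 and 154 against 255 and 180 CPM) and Fap (26.5 and 12.1 against 29.2 and 29.1 CPM). The part of these cells in the values below was not tested. In bulk samples, fewer cells of a type and less RNA per cell cannot be told apart.

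The comparison asked whether this program differs in tumour cells whose host neutrophils lack Padi4. With edgeR's quasi-likelihood test and a false discovery rate of 0.05, none of the 10 genes passed, and 0% of the 13718 genes tested did (364 had an unadjusted p under 0.05). The 10 genes nevertheless lay mostly on one side. They were chosen with earlier results of these data known, so the shares set beside them are a description and not a test. The fitted log2 fold change (PAD4-DN minus WT) was negative for 9 of 10, between −0.51 and −0.18, and 0.01 for Slc7a11. Their median was −0.36, beside 0.01 over all genes tested, of which 48.5% were negative. In CPM, the higher PAD4-DN library was still below the lower WT library for 8 of 10, beside 17.4% of all genes tested and 20.3% of those with a mean of at least 5 CPM. In TPM (like CPM, but scaled for transcript length) the count was 7 of 10, beside 11.1% of 12044 genes with a mean of at least 1 TPM. An unadjusted p under 0.05 was found for 3 of 10, all with lower values in PAD4-DN, beside 1.42% of all genes in that direction. Those 3, Slc7a5, Shmt2 and Asns, depended on the libraries used. Their log2 fold changes were −0.47, −0.51 and −0.43 with all libraries. They were −0.43, −0.36 and −0.27 without WT replicate 2, and −0.48, −0.56 and −0.55 without PAD4-DN replicate 2. With 2 libraries a group, the smallest two-sided p of an exact permutation test is 0.333.

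**Figure D1:**
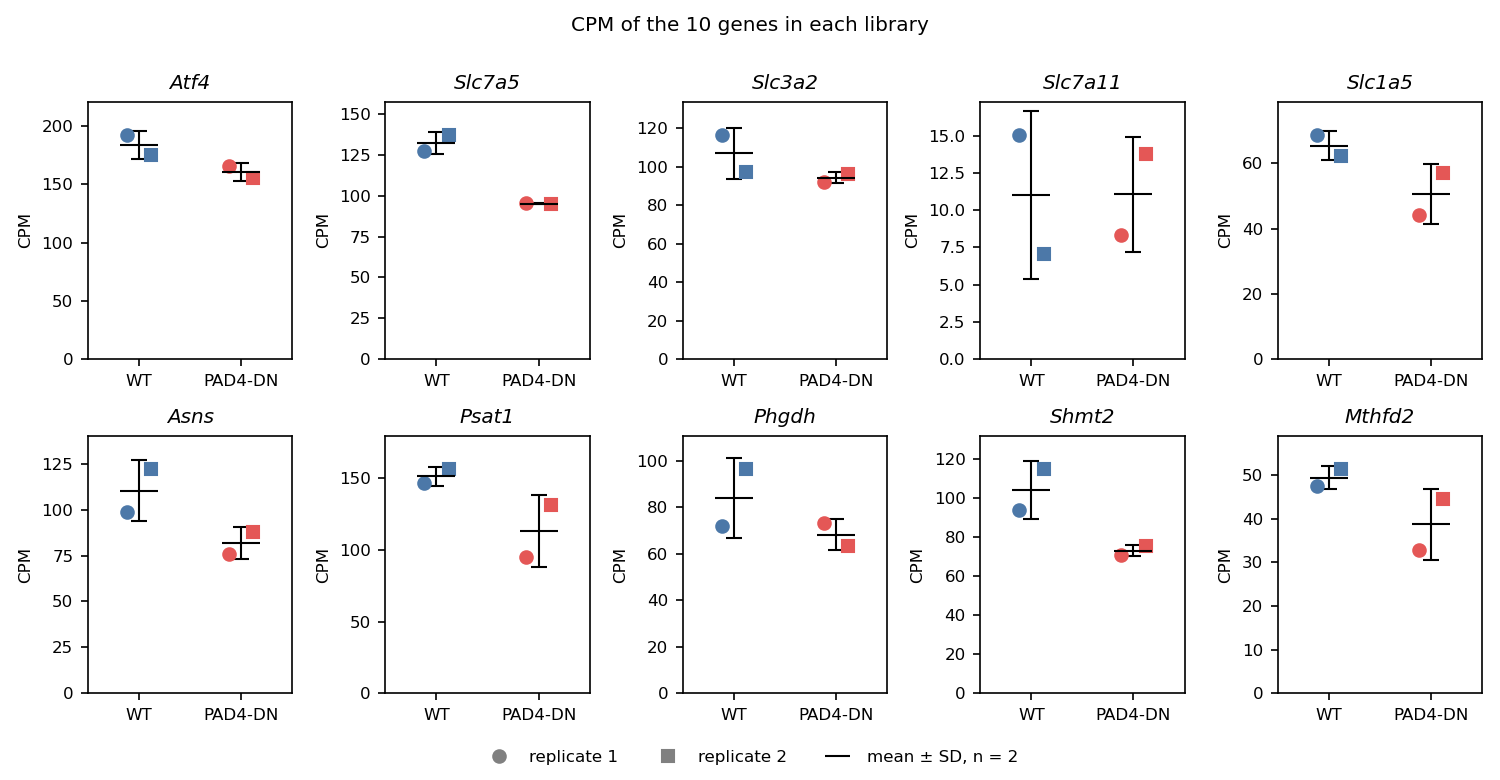
CPM of each of the 10 genes (vertical axes from 0, one scale per gene) in the WT (blue) and PAD4-DN (red) libraries; circles are replicate 1, squares replicate 2, and bars the mean ± SD (n = 2). The groups do not overlap for 8 genes and overlap for Slc7a11 and Phgdh.

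Atf4 mRNA was the most abundant of the set per transcript length, at 167 and 160 TPM in the WT pair and 157 and 145 TPM in the PAD4-DN pair. In counts it was at 192 and 175 CPM in the WT pair and 166 and 155 CPM in the PAD4-DN pair. The groups were in order without overlap on both scales, but the gap between the lowest WT and the highest PAD4-DN library, 9.67 CPM, was smaller than the difference within WT. By edgeR the log2 fold change was −0.20 (SE 0.13, 95% interval −0.51 to 0.12; edgeR adjusted p = 0.988). One transcript, Atf4-201, held 95.9% to 98.5% of the gene's TPM in every library.

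Slc7a5 encodes LAT1, which brings in leucine and other large neutral amino acids, and it needs the heavy chain encoded by Slc3a2 to reach the membrane. Slc7a5 was at 128 and 137 CPM in the WT pair and 95.3 and 95.1 CPM in the PAD4-DN pair. The PAD4-DN libraries were nearly equal, and the gap to the lower WT library was 32.3 CPM. Its log2 fold change of −0.47 (SE 0.11, 95% interval −0.75 to −0.20) had the smallest p of the set, 0.00638 before adjustment by edgeR, which ranked 30th of the genes tested and gave an adjusted p of 0.988. In TPM it was at 51.2 and 57.2 in the WT pair and 43.8 and 42.0 in the PAD4-DN pair. The gene had 1954 to 3456 counts per library, and 93.3% or more of the TPM came from the transcript Slc7a5-201. In the PAD4-DN pair, 4.56% and 3.56% of the TPM came from 1 count each on the 174-base transcript Slc7a5-203, which had 0 counts in WT.

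Slc3a2, the shared heavy chain (4F2hc, CD98), was at 116 and 97.5 CPM in the WT pair and 92.3 and 96.4 CPM in the PAD4-DN pair. WT replicate 1 was high and the other 3 libraries lay close together, with a gap between groups of 1.07 CPM. The fitted difference on the log2 scale was −0.18 (SE 0.13, 95% interval −0.51 to 0.15). Per transcript length, Slc3a2 was more abundant than its light chain in every library: Slc7a5 was at 0.464 and 0.551 of the Slc3a2 TPM in WT and at 0.438 and 0.423 in PAD4-DN. The ratios of the groups did not overlap. They were not tested.

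Slc7a11 encodes xCT, the light chain that exchanges glutamate for cystine and also pairs with the Slc3a2 product. It was the least abundant of the 10, at 2.79 and 1.33 TPM in the WT pair and 2.12 and 2.78 TPM in the PAD4-DN pair. In counts it was at 15.0 and 7.06 CPM in the WT pair and 8.34 and 13.8 CPM in the PAD4-DN pair. WT replicate 1 and PAD4-DN replicate 2 were high and the other libraries low, so the genotypes overlapped fully. The log2 fold change of 0.01 had a wide 95% interval, −1.07 to 1.08 (SE 0.43), so the values were compatible with changes of either sign inside it. Its libraries differed by 1.09 on the log2 scale within WT and by 0.73 within PAD4-DN, more than for any other of the 10. The libraries low in Slc7a11 were those high in Col1a1, Col1a2 and Pi16, which was not so for Lum, Dcn or Fap (26.5 and 12.1 against 29.2 and 29.1 CPM), and the part of such cells in the Slc7a11 values was not tested. The long coding transcript Slc7a11-201 (9223 bases) held 67.2% to 70.9% of the gene's TPM in 3 libraries and 44.4% in PAD4-DN replicate 1, where the retained-intron transcript Slc7a11-202 held 40.7%. That transcript had 36.6 counts in PAD4-DN replicate 1, and 16.6 to 29.7 in the other libraries, so these shares rest on few reads.

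Slc1a5 encodes ASCT2, an exchanger of glutamine, serine and other neutral amino acids. It was at 68.7 and 62.3 CPM in the WT pair and 44.2 and 57.1 CPM in the PAD4-DN pair. Both PAD4-DN libraries lay below WT, with PAD4-DN replicate 1 the lowest by a wide margin. The log2 fold change was −0.37 (SE 0.16; 95% interval −0.78 to 0.04). Its main coding transcript Slc1a5-201 held 54.5% to 63.6% of the TPM. The noncoding transcript Slc1a5-204 held 8.46% to 18.4%, highest in WT replicate 1, and the retained-intron transcript Slc1a5-202 4.99% to 15.5%, highest in WT replicate 2. Slc1a4, the related carrier of serine and alanine, was less abundant, with Slc1a5 at 2.67 and 2.61 times its TPM in WT and 1.76 and 2.21 times in PAD4-DN.

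**Figure D2:**
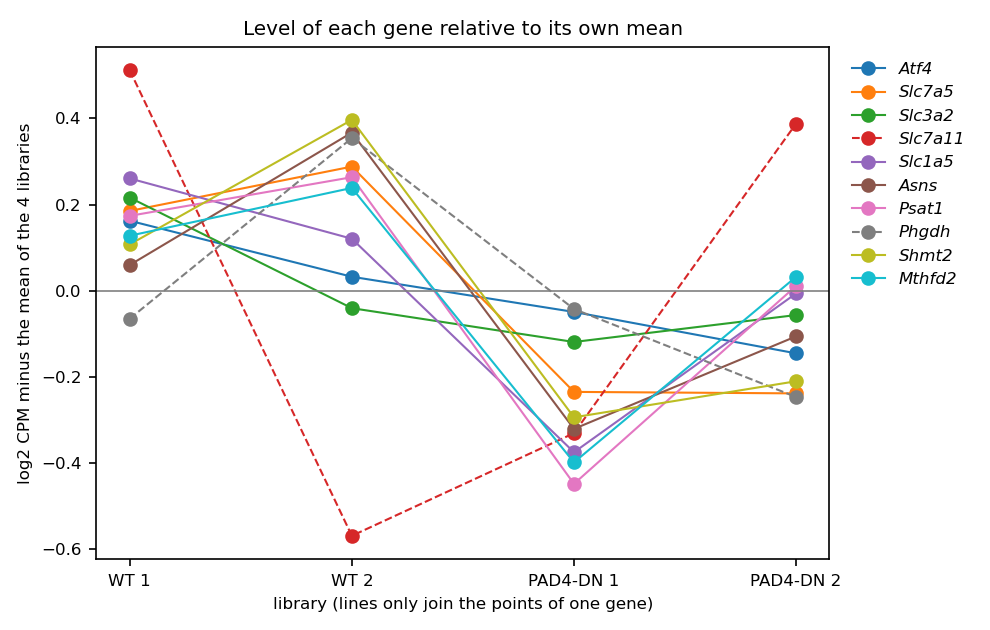
Log2 CPM of each gene minus its mean over the 4 libraries (vertical axis), by library; lines join the points of one gene, dashed for Slc7a11 and Phgdh, the genes whose groups overlap. All but Phgdh are above their mean in WT replicate 1, all 10 are below it in PAD4-DN replicate 1, and Slc7a11 alone is far above it in PAD4-DN replicate 2.

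Asns encodes asparagine synthetase, which makes asparagine from aspartate and glutamine. It was at 98.4 and 122 CPM in the WT pair and 75.6 and 87.7 CPM in the PAD4-DN pair. The groups did not overlap, with a gap of 10.7 CPM and a WT spread larger than that gap. The genotype difference on the log2 scale was −0.43 (SE 0.15, 95% interval −0.82 to −0.04), with an unadjusted edgeR p of 0.0348 and an adjusted p of 0.988. Asns-201 held at least 97.0% of its TPM.

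Phgdh and Psat1 encode the first and second enzymes of serine synthesis from 3-phosphoglycerate, phosphoglycerate dehydrogenase and phosphoserine aminotransferase. Psat1 was at 147 and 156 CPM in the WT pair and 95.3 and 131 CPM in the PAD4-DN pair. The WT libraries were close together, while PAD4-DN replicate 1 lay well below replicate 2. The fit gave a log2 fold change of −0.42 (SE 0.18, 95% interval −0.87 to 0.03). Phgdh was at 72.0 and 96.3 CPM in the WT pair and 73.1 and 63.5 CPM in the PAD4-DN pair. Here WT replicate 2 was high, and WT replicate 1 lay between the PAD4-DN libraries, so the groups overlapped. Its log2 fold change was −0.30 (SE 0.18, 95% interval −0.74 to 0.14), and −0.16 with a correction for effective transcript length. The 446-base transcript Phgdh-202 took 16.2% to 37.5% of the gene's TPM from only 59.9 to 113 counts per library, and Phgdh TPM was 78.5 and 92.7 in the WT pair and 82.2 and 79.3 in the PAD4-DN pair. The ratio of Phgdh to Psat1 in TPM was 0.891 and 0.995 in the WT pair and 1.39 and 0.993 in the PAD4-DN pair, with PAD4-DN replicate 1 apart from the others.

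Shmt2 and Mthfd2 encode mitochondrial enzymes that take a one-carbon unit from serine and oxidise it on folate, serine hydroxymethyltransferase and methylenetetrahydrofolate dehydrogenase. Shmt2 was at 93.8 and 115 CPM in the WT pair and 71.0 and 75.2 CPM in the PAD4-DN pair. The PAD4-DN libraries were close together and 18.6 CPM below the lower WT library. Its log2 fold change of −0.51 was the most negative of the set (SE 0.14, 95% interval −0.86 to −0.16), with an unadjusted edgeR p of 0.0124 and an adjusted p of 0.988. The coding transcripts Shmt2-201 and Shmt2-206 held 74.0% to 81.0% and 13.3% to 18.7% of its TPM. Mthfd2 was at 47.5 and 51.3 CPM in the WT pair and 32.9 and 44.4 CPM in the PAD4-DN pair. PAD4-DN replicate 1 was low, and PAD4-DN replicate 2 lay 3.04 CPM below WT. Its log2 fold change was −0.35 (SE 0.18, 95% interval −0.80 to 0.09), and its groups overlapped in TPM, at 36.4 and 39.8 in the WT pair and 26.6 and 36.7 in the PAD4-DN pair. Shmt2 was at 4.15 and 4.76 times the TPM of its cytosolic counterpart Shmt1 in WT and 3.15 and 4.36 times in PAD4-DN, a ratio that overlapped between the groups. Mthfd2 was at 0.520 and 0.548 of the TPM of the cytosolic Mthfd1 in WT and 0.447 and 0.558 in PAD4-DN, which also overlapped.

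**Figure D3:**
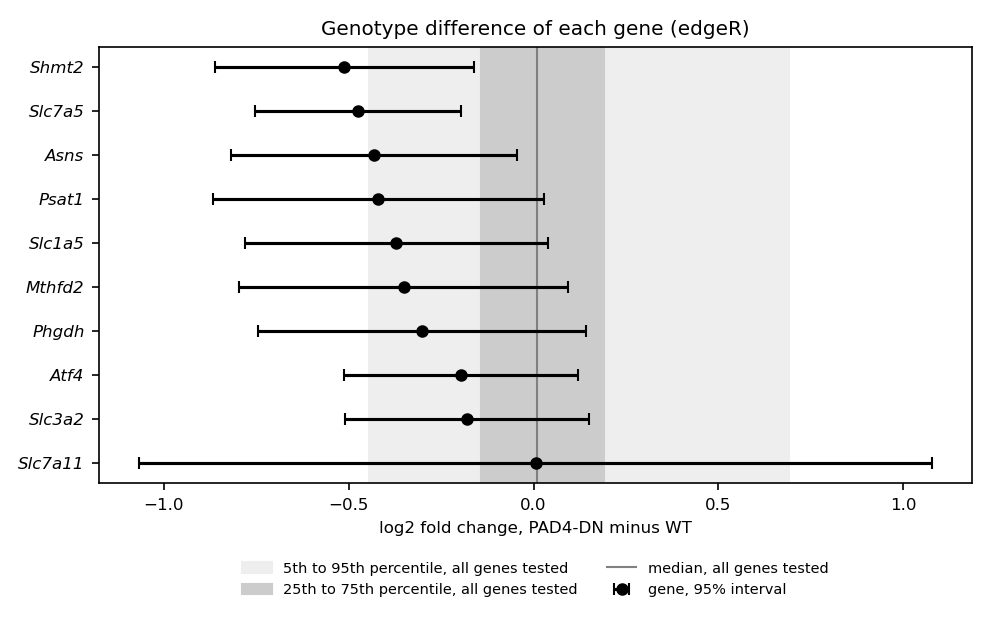
Log2 fold change, PAD4-DN minus WT (horizontal axis), of the 10 genes with 95% intervals from edgeR; grey bands span the 5th to 95th and the 25th to 75th percentile of all 13718 genes tested, and the line is their median, 0.01. Shmt2 and Slc7a5 lie below the 5th percentile of −0.45, and the interval of Slc7a11 is the widest.

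**Figure D4:**
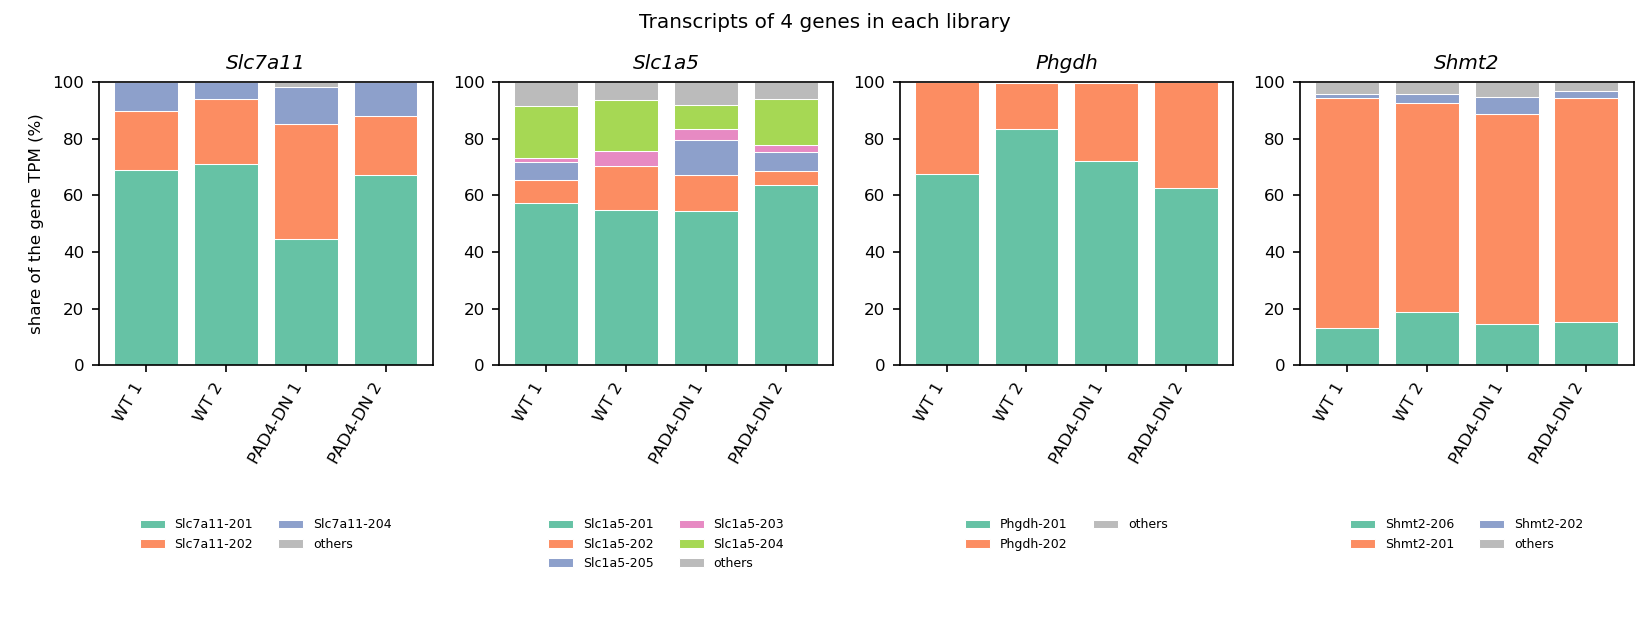
Share of the gene's TPM (vertical axis, percent) held by each transcript in the 4 libraries, for Slc7a11, Slc1a5, Phgdh and Shmt2; transcripts under 5% in every library are summed as others. The coding transcript Slc7a11-201 has its lowest share, 44.4%, in PAD4-DN replicate 1, and the shares of Phgdh-202 range from 16.2% to 37.5%.

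Across libraries, the 10 genes had a median centred log2 CPM of 0.17 and 0.25 in the WT pair, and −0.31 and −0.08 in the PAD4-DN pair. WT replicate 2 was the highest library for 6 of them and WT replicate 1 for 4, and no PAD4-DN library was the highest for any. PAD4-DN replicate 1 was the lowest for 6, PAD4-DN replicate 2 for 3 and WT replicate 2 for Slc7a11. Summed over the 10 genes, the level was 978 and 1020 CPM in the WT pair and 754 and 819 CPM in the PAD4-DN pair. The median log2 fold change was −0.24 without PAD4-DN replicate 1, the library with the highest leukocyte and macrophage markers, and −0.51 without PAD4-DN replicate 2. With a term, added after seeing the data, that separates WT replicate 2 and PAD4-DN replicate 1 from the other libraries, the median was −0.37. Each side of that term held a library of both genotypes, so the term could hardly move the median. A plain replicate block, balanced in the same way, also gave −0.37. Whichever library was left out, 9 or 10 of the 10 genes had a negative log2 fold change. These fits reused the same libraries, and 8 genes had both PAD4-DN libraries below both WT libraries, so their sign could hardly change. The median over all genes lay between −0.03 and 0.03 in these fits. Psat1 moved from −0.22 without PAD4-DN replicate 1 to −0.67 without PAD4-DN replicate 2, and Mthfd2 from −0.16 to −0.59 in the same way. Phgdh was at −0.08 without WT replicate 2, while Slc7a5 stayed between −0.53 and −0.43 over the 4 fits.

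Other genes of these pathways were described from lists, also named with earlier results of these data known. No gene of any list passed the threshold by edgeR. An unadjusted p under 0.05 was found for 7 of the 128 genes tested with lower values in PAD4-DN, beside 1.42% of all genes, and for 1, Slc16a10, with higher values, beside 1.23%. Of all genes, 48.5% had negative values. All 20 cytosolic aminoacyl-tRNA synthetases, which charge tRNAs with amino acids, had negative log2 fold changes, with a median of −0.18, and 15 of 20 had both PAD4-DN libraries below both WT libraries in CPM (17.4% of all genes). In TPM that count was 8 of 20 (11.1% of all genes). On log2(TPM + 1) the median was −0.09 with 17 of 20 negative, where the median over all genes was 0.06. The synthetases with the smallest p were Kars (lysine; 228 and 234 CPM in the WT pair, 185 and 192 CPM in the PAD4-DN pair), Qars (glutamine; 195 and 177 against 150 and 153 CPM) and Rars (arginine; 158 and 154 against 128 and 140 CPM). Their differences were smaller than those of Slc7a5 or Shmt2, and none had an unadjusted p under 0.05.

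Of the other genes of amino acid and glutathione synthesis, 17 of 22 were negative (48.5% of all genes), with a median of −0.13. These included Glul, Oat and Gclc at −2.8e-05, −8.8e-05 and −0.0024, and with limma-voom the count was 14 of 22. On log2(TPM + 1), 12 of 21 were negative with a median of −0.04, where the median over all genes was 0.06. In CPM, 7 lay below WT in both PAD4-DN libraries (17.4% of all genes), and in TPM 4 of 21 did (11.1% of all genes). Aldh18a1, which starts proline synthesis from glutamate, was at 127 and 139 CPM in the WT pair and 87.3 and 108 CPM in the PAD4-DN pair. Ahcy, which recycles S-adenosylhomocysteine, was at 171 and 178 CPM in the WT pair and at 139 CPM in both PAD4-DN libraries. Cth, which makes cysteine from cystathionine, was at 1.06 and 2.18 against 0.488 and 0.796 CPM. The unadjusted edgeR p was 0.0250 for Aldh18a1 and 0.0350 for Ahcy.

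The other serine and folate genes were mixed, with 13 of 23 negative and a median of −0.08. Of the 23, 6 lay below WT and 5 above WT in both PAD4-DN libraries, beside 17.4% and 15.4% of all genes. The 3 with the smallest p belong to the cytosolic use of one-carbon units: the purine synthesis genes Gart (118 and 120 against 94.6 and 96.7 CPM) and Atic (252 and 249 against 193 and 221 CPM), and the trifunctional folate enzyme gene Mthfd1 (156 and 154 against 124 and 136 CPM). The unadjusted edgeR p of Gart was 0.0275. Mthfd2l, the close relative of Mthfd2, was on the other side, at 12.5 and 14.9 CPM in the WT pair and 15.2 and 17.6 CPM in the PAD4-DN pair; it was picked after its values were seen.

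The other plasma membrane amino acid transporters lay on both sides. Of 18 tested, 8 were negative and 10 positive, with a median of 0.01; 4 lay below and 3 above WT in both PAD4-DN libraries (17.4% and 15.4% of all genes), and the 3 with the smallest p were all among those above WT. They were Slc16a10, which carries aromatic amino acids (8.0 and 6.5 CPM in the WT pair, 11.4 and 12.3 CPM in the PAD4-DN pair), Slc38a4, a system A carrier (97.0 and 108 against 117 and 137 CPM), and the amino acid carrier gene Slc36a4 (22.6 and 23.8 against 27.5 and 27.8 CPM). Slc16a10 had an unadjusted edgeR p of 0.0193.

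Other ATF4 and integrated stress response genes were 10 of 16 negative (median −0.05), and 2 lay below WT in both PAD4-DN libraries, a share under the 17.4% of all genes. Sesn2, which senses leucine and restrains mTORC1, was at 29.6 and 30.5 CPM in the WT pair and 20.2 and 22.3 CPM in the PAD4-DN pair, with an unadjusted edgeR p of 0.0108. The transcription factor gene Cebpb was at 29.8 and 28.0 against 41.2 and 29.0 CPM, and Eif4ebp1, the gene of a translation repressor under mTORC1, at 72.5 and 56.9 against 57.1 and 57.6 CPM. Among the kinases of eIF2 and the amino acid sensors, 14 of 16 were negative (48.5% of all genes), with a median of −0.09. Of these 16 genes, 6 lay below WT in both PAD4-DN libraries in CPM (17.4% of all genes) and 3 in TPM (11.1% of all genes). On log2(TPM + 1), 10 of 16 were negative with a median of −0.03, where the median over all genes was 0.06. Gcn1l1, whose product helps activate the eIF2 kinase GCN2 on stalled ribosomes, was at 140 and 135 against 112 and 105 CPM, the mTORC1 subunit gene Rptor at 91.2 and 94.9 against 81.2 and 77.1 CPM, and the interferon-induced kinase gene Eif2ak2 at 80.5 and 127 against 70.4 and 97.6 CPM. A list of MYC and mTORC1 metabolic regulators had a median of −0.02, with 7 of 13 negative. In it were the tumour suppressor gene Trp53 (159 and 162 against 120 and 121 CPM), the lipid synthesis regulator Srebf1 (78.1 and 67.6 against 58.7 and 54.6 CPM) and Sesn1 (20.2 and 22.8 against 24.9 and 23.6 CPM). Unadjusted edgeR p was 0.0277 for Gcn1l1, 0.0121 for Trp53 and 0.0358 for Srebf1. Myc, a known activator of Slc7a5 and Shmt2, was at 477 and 336 CPM in the WT pair and 402 and 343 CPM in the PAD4-DN pair, which overlapped; it too was picked after its values were seen.

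**Figure D5:**
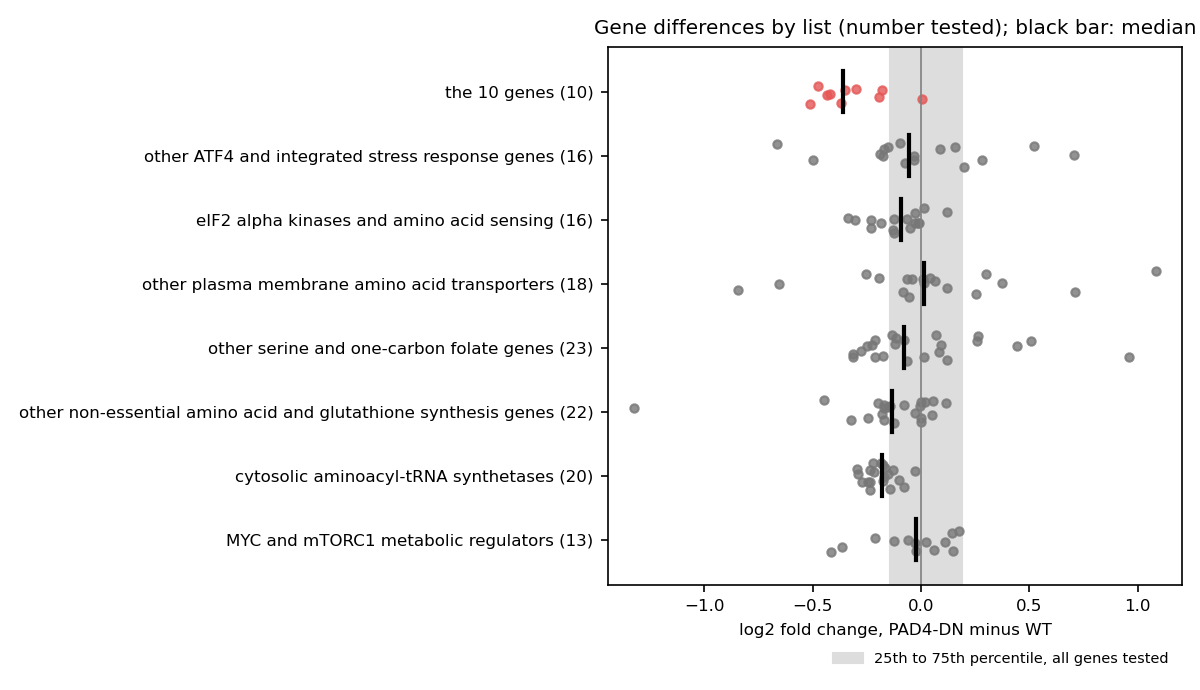
Log2 fold change, PAD4-DN minus WT (horizontal axis), of each tested gene by list, with the number tested in brackets; black bars are list medians and the grey band is the 25th to 75th percentile of all genes tested. The medians run from −0.36 for the 10 genes and −0.18 for the synthetases to 0.01 for the other transporters.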

How the data were processed

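Per the submitters' processing notes, kallisto and build GRCm39 were used; the kallisto version and annotation release are left unstated there. Per the labels' protocols, libraries were strand-specific and poly-A selected, from 100 ng of RNA with 13 PCR cycles and 75-cycle single-end reads. The deposited estimated counts are unnormalized reads per transcript, and the deposited TPM values were scaled by kallisto for effective length. Transcripts were matched to GENCODE M21 by identifier without version; 116408 of 117486 matched, and the rest held 0.483% to 0.493% of counts. Counts were summed per gene and rounded to whole numbers. For 8 of the 10 genes these sums were whole within 0.05 before rounding, with Phgdh nearest that limit at 0.047. For Slc3a2 and Slc7a11 they were not, so kallisto divided some of their reads with transcripts outside these sums. Whether those belong to other genes or are unmatched transcripts was not examined.

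PAD4-DN was compared with WT by edgeR 4.0.16 in R 4.3.3 (TMM, filterByExpr, quasi-likelihood test, Benjamini-Hochberg adjustment over 13718 genes); SE and interval follow from the F statistic. The test was tried on simulated independent counts with changes larger than those of the 10 genes. That trial therefore does not show how it performs for differences of their size. Alternatives were DESeq2 1.42.0, limma 3.58.1 (voom, and trend on log2(TPM + 1)), other size factors, no filter, length offsets, protein-coding genes only, a replicate block and each library left out. Named genes are the 10, and the 3 of each list with the smallest p; Shmt1, Slc1a4, Mthfd1 (in ratios), Mthfd2l, Myc and the markers printed were chosen outside that rule, after values were seen. The 10 genes and all lists were chosen with earlier results of these data known. Without molecular identifiers, PCR copies of a molecule are counted separately.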

Additional observations from a re-analysis of the deposited data

How the results depend on the processing

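With 2 libraries a group, the median SE of the 10 log2 fold changes was 0.16, and no difference passed the adjustment over 13718 genes, although the unadjusted 95% intervals of Slc7a5, Shmt2 and Asns excluded 0. Over 14 alternatives none of the 10 genes passed, and of 140 values only 3 changed sign, all for Slc7a11: −0.0074 without the low-count filter, and −0.44 and −0.41 once WT replicate 2 or PAD4-DN replicate 2 was left out, in a range from −0.44 to 0.65 over the libraries left out. Over all genes DESeq2 called 10 (11 on the filtered genes, chosen after seeing the data), edgeR without the filter 10, and the fits with 1 library left out 0 to 2; such fits assume that the lone library varies like the other group. The 10-gene median ran from −0.51 to −0.24 with 1 library left out. In those fits the count of genes below WT ran from 8 to 9, beside 30.3% to 37.2% of all genes. With all libraries, the count of 8 in CPM became 7 with DESeq2 size factors, 7 in TPM and 8 with total counts. Without WT replicate 2, the log2 fold changes of Slc7a5, Shmt2 and Asns shrank to −0.43, −0.36 and −0.27. The libraries share only replicate numbers: deviations of same-numbered libraries correlated at −0.34 over 13718 genes. With the replicate block edgeR called 0 genes, and with the numbers crossed, chosen after seeing the data, 0; unadjusted p was under 0.05 for 309 and 412 genes, beside 364 without a block.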

Other observations

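Genes whose levels over the 4 libraries were most like those of Slc7a5 were taken by the distance between centred log2 CPM profiles, among 9669 other protein-coding genes of at least 5 CPM. The nearest were Lrfn4, a synaptic adhesion gene (distance 0.049; 10.2 and 10.7 CPM in the WT pair, 7.42 and 7.71 CPM in the PAD4-DN pair), Gcat, which encodes the mitochondrial enzyme that makes glycine from a threonine product (0.050; 8.62 and 9.32 against 6.39 and 6.66 CPM), and Aup1, a lipid droplet and protein degradation gene (0.056; 61.8 and 65.2 against 47.3 and 47.5 CPM). Among the 10 genes, Shmt2 was the nearest to Slc7a5, at 0.149, followed by Asns at 0.217, while Slc7a11 was the farthest, at 1.12. The profiles nearest to the median of the 10 genes were those of Pdlim1, an actin-associated gene (0.036; 137 and 141 against 98.6 and 114 CPM), Tmem229b (0.061) and the centromere gene Cenpt (0.065). These distances rest on 4 libraries and are a description only.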
